A study of Mus musculus with 9 samples.

Results

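Samd3, Ctla2a and Ctla2b are mouse genes whose RNA was high in Type-1 γδ T cells of peripheral lymph nodes. They make up 3 of the 22180 genes that could be compared over 9 Affymetrix GeneChip arrays. Each is represented by 1 array row that names no other gene. The members were picked from values of these arrays. Samd3 and Ctla2a belong to the 20 genes (0.0902% of those tested) that passed the test as higher in Type-1 cells than in Naive-like cells and than in IELs. Ctla2b, the neighbour and close relative of Ctla2a, was added although its difference from IELs missed that threshold (adjusted p = 0.108). In an alternative fit of all 9 arrays, with the replicate number as a block on weak grounds for a pairing, it was 0.024. Their levels in Type-1 cells are therefore given as a description, without a test.

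The arrays cover 3 subsets of γδ T cells from mice on a C57BL/6 background, with 3 biological replicates each. Peripheral lymph nodes gave the Naive-like and Type-1 cells, and the intestine gave the IELs (intraepithelial lymphocytes), so tissue and subset change together in every comparison with IELs. No agent, modified allele or age is named for any group, and neither the sorting gates nor the number of mice behind a replicate is stated. The p-values therefore cover only the spread between these samples. The 3 arrays labelled replicate 3 carry a date code in their descriptions that the others lack. All values are log2 RMA values, and a difference is given with its standard error (SE) from a limma fit over all 9 arrays.

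Ctla2a and Ctla2b were first isolated as transcripts of activated mouse T cells and mast cells, in the same cytotoxic T lymphocyte associated (CTLA) series that yielded granzyme genes. Their products resemble the propeptide of cathepsin L-type cysteine proteases, the segment that keeps such an enzyme inactive until it is removed, and mouse Ctla2a protein inhibits cathepsin L. Samd3 encodes a protein with a sterile alpha motif, a domain that often mediates binding between proteins. Its transcripts are known from natural killer (NK) cells and cytotoxic T cells, and its role there is little understood.

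Samd3 stood at 9.79, 9.37 and 9.08 in the Type-1 arrays, in the order of replicates 1 to 3. It stood at 5.24, 4.95 and 5.22 in Naive-like cells and at 5.26, 4.47 and 4.78 in IELs. The Type-1 arrays lay far above all others, while Naive-like cells and IELs overlapped. The difference between Type-1 and Naive-like cells was 4.28 ± 0.25, or 19.4-fold, and that between IELs and Type-1 cells was -4.58 ± 0.25. In bulk samples, fewer cells expressing a gene and less RNA per cell cannot be told apart.

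Ctla2a stood at 10.91, 10.35 and 10.50 in Type-1 cells, at 6.53, 6.20 and 6.90 in Naive-like cells and at 8.14, 7.02 and 7.77 in IELs. Here no subset overlapped another, and IELs lay between the lymph node subsets. Type-1 cells exceeded Naive-like cells by 4.04 ± 0.29, or 16.5-fold, and IELs differed from Type-1 cells by -2.94 ± 0.29.

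Ctla2b stood at 9.72, 9.22 and 9.43 in Type-1 cells, at 5.20, 4.28 and 6.53 in Naive-like cells and at 8.30, 7.13 and 8.36 in IELs. The order of the subsets was that of Ctla2a, again without overlap, but IELs stood closer to Type-1 cells. The Naive-like arrays spread widely, with an SD of 1.13 against 0.25 in Type-1 cells. Type-1 cells exceeded Naive-like cells by 4.12 ± 0.48, or 17.3-fold, and IELs differed from Type-1 cells by -1.52 ± 0.48.

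**Figure D1:**
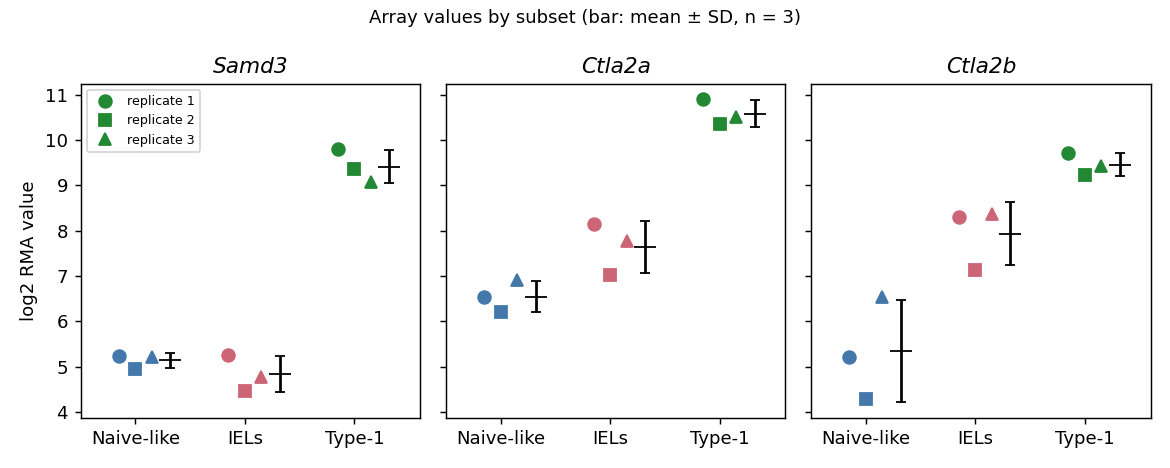
Log2 RMA value of Samd3, Ctla2a and Ctla2b on each array (points, shaped by replicate) in Naive-like cells, IELs and Type-1 cells, with the mean ± SD of 3 arrays. The Type-1 arrays are highest for each gene, and IELs move from the Naive-like level of Samd3 (mean 4.84 against 5.13) toward the Type-1 level of Ctla2b (7.93 against 9.45). Heights are not comparable between genes.

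All 3 genes had every Type-1 array above every Naive-like array, as had 6.33% of all genes, and every Type-1 array above every IEL array, as had 9.78%. By size of the difference between Type-1 and Naive-like cells, Samd3, Ctla2b and Ctla2a ranked 2, 3 and 4 of all genes. Against IELs these genes ranked 5, 159 and 26. These comparisons chose the members, and nothing further is read from these shares and ranks. At the threshold that defines the 20 genes, the larger of the 2 adjusted p-values was 0.043 for Klrb1c and 0.048 for Bmp7, just inside. It was 0.0501 for Cxcr3 and 0.055 for Il18r1, just outside, and 0.108 for Ctla2b.

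The difference between Type-1 and Naive-like cells had the same sign among the arrays with and without the date code. It was 4.49 without the code and 3.86 with it for Samd3, 4.26 and 3.60 for Ctla2a, and 4.73 and 2.90 for Ctla2b. The smaller Ctla2b value goes with Naive-like replicate 3, whose Ctla2b level was the highest of that subset. For IELs against Type-1 cells the values without and with the code were -4.71 and -4.30, -3.04 and -2.73, and -1.75 and -1.07 in the same order of genes. Only 1 array per subset carries the code, so these values have no test.

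The 3 genes differed in how IELs stood relative to Naive-like cells. This difference is the sum of the 2 signed differences that chose the members. Low Naive-like values raise both this difference and that between Type-1 and Naive-like cells. The adjusted p for IELs against Naive-like cells describes the fit over all genes and is no independent support. Ctla2b was higher in IELs by 2.59 ± 0.48 (95% interval 1.55 to 3.64), or 6.03-fold, and its 3 IEL arrays all exceeded its Naive-like arrays. It passed the limma test at adjusted p = 0.0059. Ctla2a was higher by 1.10 ± 0.29 (interval 0.46 to 1.74), also without overlap as for 10.9% of all genes, and missed the threshold at adjusted p = 0.053. Samd3 differed by -0.30 ± 0.25 (interval -0.84 to 0.25) with overlapping arrays and adjusted p = 0.73.

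Of the 3 genes, 1 thus passed, where 5.19% of all genes passed, 3.57% as higher and 1.62% as lower in IELs. The IEL rise corresponded to 63.0% of the Type-1 rise over Naive-like cells for Ctla2b and to 27.2% for Ctla2a on the log2 scale. Among the arrays without the date code the differences were 2.97, 1.22 and -0.22 for Ctla2b, Ctla2a and Samd3, and among those with it 1.83, 0.86 and -0.44. The Ctla2a call turned on single arrays: it passed without IELs replicate 2 (1.41, adjusted p = 0.016) or Type-1 replicate 1 (1.10, adjusted p = 0.0469). The Ctla2b call held without any 1 array, at adjusted p from 9.5e-04 to 0.035.

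The ratio of Ctla2b to Ctla2a within an array was higher in IELs than in both lymph node subsets. On the log2 scale it was 0.16, 0.11 and 0.59 in IELs, -1.33, -1.92 and -0.37 in Naive-like cells, and -1.19, -1.13 and -1.07 in Type-1 cells. The IEL arrays lay above all 6 lymph node arrays, and the lymph node subsets overlapped. Only changes of this ratio can be read, since each gene has its own probes. Between IELs and Naive-like cells the ratio differed by 1.49, and the ratio of Ctla2b to Samd3 by 2.89. Each had an exact two-sided permutation p of 0.1, the smallest that 3 arrays against 3 allow. Samd3 and Ctla2a were chosen partly for IEL values below those of Type-1 cells, a threshold that Ctla2b missed. That choice favours higher ratios in IELs, so the ratios and their p-values are a description and no independent support.

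Within a subset Ctla2a was high or low on much the same arrays as Ctla2b and as Samd3, while the correlation of Samd3 with Ctla2b did not pass. IELs replicate 2 was the lowest IEL array for each gene, by -0.37, -0.62 and -0.80 from the subset mean for Samd3, Ctla2a and Ctla2b. Naive-like replicate 2 was likewise the lowest of its subset, by -0.19, -0.34 and -1.06. Type-1 replicate 1 was the highest of its subset, by 0.38, 0.32 and 0.26. The genes parted on other arrays. Samd3 was lowest on Type-1 replicate 3 (-0.34), where Ctla2a and Ctla2b were lowest on replicate 2 (-0.24 and -0.23). In Naive-like cells Samd3 was highest on replicate 1 and the Ctla2 genes on replicate 3.

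For Ctla2a and Ctla2b the deviations of the 9 arrays from their subset means correlated at Pearson r = 0.85 (two-sided exact permutation p = 0.0093 within subsets, 0.028 adjusted over 3 pairs). Spearman's rho was 0.88 (exact permutation p = 0.019, adjusted 0.056), and r was 0.89 without the 2 arrays farthest from the median. For Samd3 and Ctla2a r was 0.84 (exact permutation p = 0.032, adjusted 0.049) and rho 0.82 (exact permutation p = 0.037, adjusted 0.056), with r = 0.71 without the 2 farthest arrays. For Samd3 and Ctla2b r was 0.55 (exact permutation p = 0.093) and rho 0.50 (exact permutation p = 0.22), which did not pass.

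The rank correlations missed the threshold after adjustment, so the relation rests on Pearson's r. Arrays share their normalization: 99.2% of all genes had a lower r with Ctla2a than Ctla2b had, and 98.4% a lower r with Samd3 than Ctla2a had. After subtraction of each array's median the values for Ctla2a with Ctla2b and with Samd3 were 0.88 and 0.88. Replicate 2 lay below the subset mean for each gene in each subset, a pattern the permutations do not keep. With the means of the replicate numbers removed as well, a step added after seeing the data, r was 0.97 for Samd3 with Ctla2a, 0.84 for Samd3 with Ctla2b and 0.77 for Ctla2a with Ctla2b. Few degrees of freedom are then left, and these values have no test. Probe sequences are not used here, and cross-hybridisation between the related Ctla2 transcripts was not tested.

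**Figure D2:**
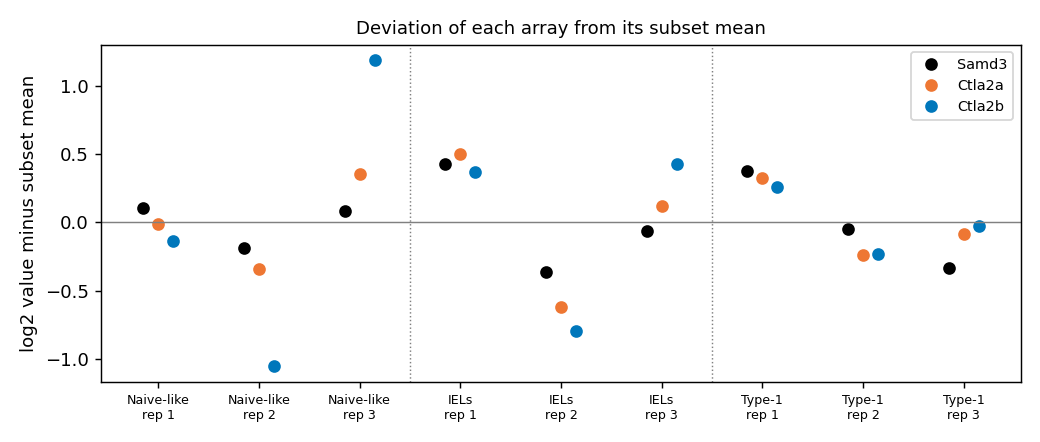
Log2 value of each array minus the mean of its subset for Samd3, Ctla2a and Ctla2b, with dotted lines between subsets. On IELs replicate 2 all 3 genes lie below 0 (-0.37, -0.62 and -0.80), and on Type-1 replicate 1 all lie above it.

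The promoters of these genes are shown because the members share a pattern across subsets and the Ctla2 genes resemble each other. Each window runs from 250 bases before to 50 bases after a transcript start in RefSeq (GRCm38.p6), 5′ to 3′ on the gene's strand. Capitals mark matches to any of 6 motifs searched on both strands: T-box GGTGTGA, Runx TGTGGT, ETS CGGAAG, STAT TTCNNNGAA, AP-1 TGANTCA and TATA box TATAAA. The matches shown do not overlap each other. Samd3 has 1 window, at chr10:26229457-26229756 on the + strand. Ctla2b has 1, at chr13:60897398-60897697 on the - strand, and of the 2 overlapping windows of Ctla2a the one at chr13:60936576-60936875 on the - strand is shown.
Samd3: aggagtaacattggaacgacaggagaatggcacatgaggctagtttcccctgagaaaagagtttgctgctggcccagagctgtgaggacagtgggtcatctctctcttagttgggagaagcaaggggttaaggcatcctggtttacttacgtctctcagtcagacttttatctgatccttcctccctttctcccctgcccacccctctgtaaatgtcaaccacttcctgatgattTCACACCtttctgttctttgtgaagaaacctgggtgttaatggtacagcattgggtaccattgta
Ctla2a: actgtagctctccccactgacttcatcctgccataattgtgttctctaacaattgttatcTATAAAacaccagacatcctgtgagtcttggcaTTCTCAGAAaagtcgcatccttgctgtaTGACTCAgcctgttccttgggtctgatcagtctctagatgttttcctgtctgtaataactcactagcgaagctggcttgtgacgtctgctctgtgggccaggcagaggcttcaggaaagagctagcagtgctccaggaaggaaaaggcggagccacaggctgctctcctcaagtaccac
Ctla2b: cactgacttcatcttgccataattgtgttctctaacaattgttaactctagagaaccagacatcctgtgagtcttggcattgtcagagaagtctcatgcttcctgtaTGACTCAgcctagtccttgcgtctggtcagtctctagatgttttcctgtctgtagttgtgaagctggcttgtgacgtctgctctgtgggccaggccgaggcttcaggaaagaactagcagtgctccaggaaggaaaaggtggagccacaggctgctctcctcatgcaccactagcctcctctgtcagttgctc

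The Ctla2a and Ctla2b windows were alike, with 255 identical bases in 286 aligned columns (89.2%, 8 columns with a gap). Against the Samd3 window they gave 48.8% and 50.4% in the same kind of alignment. Both Ctla2 windows held the AP-1 motif, as did 7.81% of the 32851 promoter windows in the RefSeq table. The Ctla2a window alone held a STAT motif (8.30% of windows) and a TATA box motif (13.6%). The Samd3 window held 1 T-box motif, on the opposite strand with its first printed base 15 bases before the start (3.98% of windows). A match is a run of letters and was not examined for binding.

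The Ctla2 genes sit on chromosome 13 among related genes, in the order Ctla2b, Tpbpb, Ctla2a, Tpbpa, followed by placental cathepsin genes. Tpbpa and Tpbpb are trophoblast genes related to the same propeptide. None of the measured genes around them passed the test between Type-1 and Naive-like cells, where 0.284% of all genes did. Tpbpb, between the Ctla2 genes, differed by 0.37 ± 0.34 between Type-1 and Naive-like cells, with means of 2.09 ± 0.69 (SD, n = 3) and 1.72 ± 0.10. Tpbpa differed by -0.07 ± 0.32, Ctsj by -0.17 ± 0.24 and Ctsq by 0.60 ± 0.33. On the other side 4930486L24Rik differed by -0.14 ± 0.25, Ctsll3 by 0.00 ± 0.28 and BC051665 by -0.05 ± 0.35.

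Of the 13 other genes measured between Ctsll3 and Cts3 none passed the limma test in any of the 3 comparisons. Of all genes, 0.284% passed in Type-1 against Naive-like cells, 5.14% in IELs against Type-1 and 5.19% in IELs against Naive-like cells. Counts of 0 among so few genes are near these shares. In the same order, 0, 0 and 1 of the 13 had an unadjusted p under 0.05. Their differences between Type-1 and Naive-like cells ran from -0.55 to 0.60. Samd3 on chromosome 10 was chosen for its high Type-1 values, so its distance from its neighbours is a description. L3mbtl3, the next measured gene, differed by -0.46 ± 0.31, and the 6 nearest measured genes (also Epb41l2, Smlr1, 4930401C15Rik, Gm8709 and Arhgap18) ran from -0.46 to 0.12. None of these 6 genes passed in any comparison, again near the shares over all genes, and none had an unadjusted p under 0.05.

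**Figure D3:**
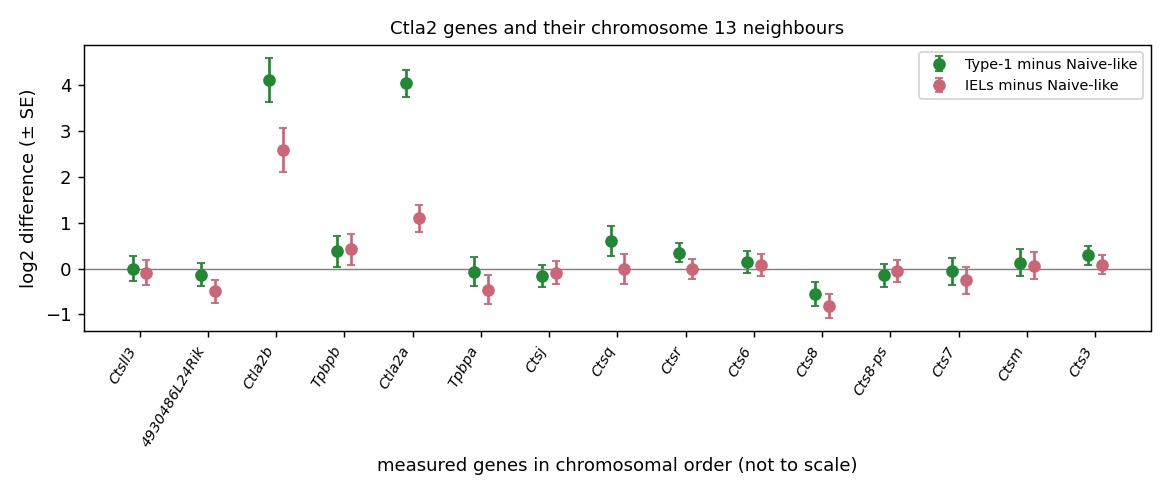
Log2 difference (± SE of the limma fit) of each measured gene from Ctsll3 to Cts3 on chromosome 13, in order along the chromosome and not to scale, for Type-1 and for IELs minus Naive-like cells. Ctla2b and Ctla2a stand at 4.12 and 4.04 in Type-1 cells, while the genes beside and between them lie within -0.55 to 0.60. The Ctla2 genes were picked from values of these arrays, so their distance from the rest is a description.

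Cathepsin L, the protease that mouse Ctla2a protein inhibits, did not pass in any comparison. Ctsl stood at 5.02 ± 0.15 (SD, n = 3) in Naive-like cells, 5.16 ± 0.17 in Type-1 cells and 5.32 ± 0.16 in IELs. Its difference between Type-1 and Naive-like cells was 0.13 ± 0.19 (interval -0.28 to 0.55; adjusted p = 0.95). None of the 10 papain-family cathepsin genes passed in that comparison (median -0.07 against 0.03 over all genes), where 0.284% of all genes did. At an unadjusted p under 0.05 there was 1, Ctsw, higher in Type-1 cells by 0.87 ± 0.24 (limma adjusted p = 0.30). Between IELs and Naive-like cells 3 of the 10 passed as higher, among them Ctsw (1.07 ± 0.24, limma adjusted p = 0.018), and 1 as lower. The count of 3 fell as low as 0 with 1 array left out.

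In IELs, Ctsc, which activates granzymes, was higher than in Type-1 cells by 1.64 ± 0.29, and the lysosomal protease gene Ctsb was higher by 1.22 ± 0.24. Ctss, a protease of antigen processing, was lower at -1.24 ± 0.22. These were the 3 of 10 that passed there, where 5.14% of all genes passed. Without IELs replicate 2 or replicate 3 only 1 of the 2 increases passed. Of 13 cystatin genes, which encode other cysteine protease inhibitors, none passed between Type-1 and Naive-like cells, where 0.284% of all genes did. The median of the 13 was 0.05, and 1 had an unadjusted p under 0.05. Cstb was higher in IELs than in Type-1 cells by 1.39 ± 0.35 (adjusted p = 0.041), a call that was lost when 8 of the 9 arrays were left out in turn, all but Type-1 replicate 1.

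The other genes of the CTLA series had another pattern. Gzmb and Gzma, which encode granzymes B and A, and the inhibitory receptor gene Ctla4 were all higher in IELs than in Type-1 cells. The differences were 6.46 ± 0.36, 5.22 ± 0.34 and 3.0 ± 0.32, where 3.73% of all genes passed as higher. Between Type-1 and Naive-like cells 0.284% of all genes passed and none of these 3. Their differences there were 1.60 ± 0.36, 0.41 ± 0.34 and -0.35 ± 0.32, with 1 of 3 at an unadjusted p under 0.05. Without Naive-like replicate 2 the count that passed was 1. Of the 12 other measured Samd genes none passed in any comparison. Of all genes, 0.284% passed in Type-1 against Naive-like cells, 5.14% in IELs against Type-1 and 5.19% in IELs against Naive-like cells. A count of 0 in 12 is near these shares. Between Type-1 and Naive-like cells the median difference of the 12 was 0.08 and none had an unadjusted p under 0.05. Samd9l, an interferon-inducible gene, differed by 0.17 ± 0.22 and Samd1 by -0.13 ± 0.18.

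Klrk1 and Klrc2 were among the 6 genes nearest in profile to each of the 3 members. Likeness was the root-mean-square difference in log2 between profiles, each centred on its own mean, and it carries the subset differences that chose the members. For Ctla2a the nearest was Klrk1, which encodes the activating receptor NKG2D, at 0.32, followed by Klrc2 at 0.53 and Klrc3 at 0.70, genes of the NKG2 family. Samd3 followed at 0.75, the granzyme M gene Gzmm at 0.75 and Ctla2b at 0.79, against a median of 1.75 over all genes.

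For Samd3 the nearest was Klrc3 at 0.43, then Ctla2a at 0.75, Klrk1 at 0.76, Klrc2 at 0.86, Gzmm at 0.91 and Il18rap, which encodes a chain of the interleukin 18 receptor, at 0.95 (median of all genes 2.11). Ctla2b was nearest to Ctla2a at 0.79. Its next genes were the chemokine gene Xcl1 at 0.94, Klrk1 at 0.96, Klrc2 at 1.02, the receptor gene Slamf7 at 1.04 and the hyaluronan receptor gene Cd44 at 1.06 (median 1.83). Xcl1 and Slamf7 were high in IELs too, with differences of 0.36 ± 0.23 and 0.47 ± 0.22 between IELs and Type-1 cells.

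The array values show how close these profiles were. Klrk1 stood at 8.14, 6.65 and 7.53 in Type-1 cells, at 3.52, 3.56 and 3.55 in Naive-like cells and at 4.65, 3.98 and 4.73 in IELs. As with Ctla2a, the IEL arrays lay between the lymph node subsets without overlap. Klrc3 stood at 6.41, 6.64 and 5.21 in Type-1 cells, at 2.17, 2.10 and 2.01 in Naive-like cells and at 3.03, 1.57 and 1.66 in IELs. As with Samd3, IELs and Naive-like cells overlapped.

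Of 12 NKG2 and related receptor genes, 7 passed as higher in Type-1 than in Naive-like cells and none as lower (median 2.28), where 0.212% of all genes passed as higher and 0.0721% as lower. The largest differences were 5.51 ± 0.34 for Klre1, 4.03 ± 0.35 for Klrc2, 3.99 ± 0.41 for Klrc3 and 3.89 ± 0.33 for Klrk1. Klre1, a lectin-like receptor gene, differed by 0.09 ± 0.34 between IELs and Type-1 cells (interval -0.65 to 0.83). Between IELs and Type-1 cells 2 receptor genes passed as higher and 4 as lower, against 3.73% and 1.41% of all genes. Without IELs replicate 2 or replicate 3 the first count was 1.

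Of 19 measured genes of the type 1 programme, 11 were higher in Type-1 than in Naive-like cells and none lower (median 1.93), again against 0.212% and 0.0721% of all genes. Eomes, which encodes a T-box transcription factor, rose by 1.52 ± 0.27 and was lower in IELs than in Type-1 cells at -3.41 ± 0.27. Il18rap rose by 2.60 ± 0.33 and was lower in IELs at -3.01 ± 0.33. Il18r1, the partner chain, stood at 1.67 ± 0.31 (adjusted p = 0.055) and at -4.83 ± 0.31. Xcl1 rose by 2.73 ± 0.23. Between IELs and Type-1 cells 6 of the 19 passed as higher in IELs and 4 as lower (median 0.52), against 3.73% and 1.41% of all genes. With 1 array left out these counts ran from 3 to 7 and from 4 to 5. These lists hold genes named beside the members in earlier results of these arrays, so their direction is no independent evidence.

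**Figure D4:**
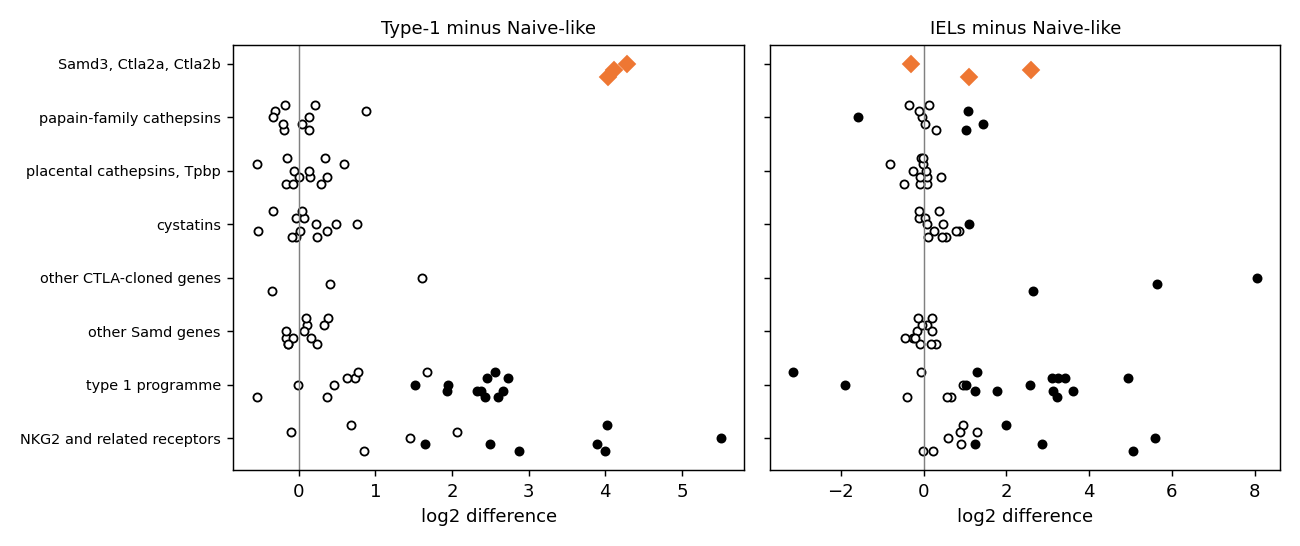
Log2 difference of Type-1 (left) and of IELs (right) from Naive-like cells for Samd3, Ctla2a and Ctla2b (diamonds) and for the genes of 7 lists (circles, filled where the limma adjusted p was under 0.05). In Type-1 cells the members, chosen partly by this difference, lie at 4.04 to 4.28, and in IELs they spread from -0.30 to 2.59. Among the listed genes Klre1 lies beyond the members in Type-1 cells, at 5.51. Klrc2, Klrc3 and Klrk1 lie just below the members, at 4.03, 3.99 and 3.89.

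The labelled cell type was checked against its markers. The CD3 chain genes Cd3d and Cd3e had means of 11.1 and 10.6 in Type-1 cells and were at least as high in the other subsets, and of 6 measured γδ T-cell markers none differed between Type-1 and Naive-like cells (none at an unadjusted p under 0.05). The γδ receptor constant genes Trdc, Trgc1 and Trgc2 are not analysed here, so this check does not settle the γδ label. No marker of B cells (6), mast cells (9), endothelial cells (9) or intestinal epithelium (10) passed between Type-1 and Naive-like cells. Nor did any of conventional αβ T cells (4) or myeloid and dendritic cells (8). Of all genes 0.284% passed there, so these counts of 0 are near that share and do not show other cells to be absent. In the same order, 0, 0, 1, 0, 2 and 1 markers had an unadjusted p under 0.05. The 2 αβ T-cell markers were Cd8b1, with means of 10.35 in Naive-like and 8.21 in Type-1 cells (-2.14 ± 0.47), and Cd40lg (0.69 ± 0.29). The mean of the mast cell markers was 2.98 to 3.02 on the Type-1 arrays and 2.69 to 2.90 on the Naive-like arrays.

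Between Type-1 and Naive-like cells, some NK cell markers moved in the direction of the members. Of 10 measured, 5 passed as higher in Type-1 than in Naive-like cells, where 0.212% of all genes did, namely Ncr1 (2.24 ± 0.39), Klrb1c (2.50 ± 0.32), Tyrobp (1.96 ± 0.33), Fcer1g (2.34 ± 0.32) and Eomes. The mean of the 10 was 6.28 to 6.92 on the Type-1 arrays and 5.37 to 5.52 on the Naive-like arrays. The count was 1 without Naive-like replicate 3, 2 without Naive-like replicate 1 or IELs replicate 2, 4 without IELs replicate 1 and 3 without any other array. It was 2 after subtraction of array medians and 0 on the arrays without the date code. Between IELs and Type-1 cells 4 of the 10 passed as higher and 4 as lower, against 3.73% and 1.41% of all genes. The mean of the 10 was 7.02 to 7.17 on the IEL arrays.

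The mean of the 10 NK and innate lymphoid cell markers was 6.28, 6.90 and 6.92 on Type-1 replicates 1 to 3. Of the 10, 6 were lowest on replicate 1. Ncr1, which encodes the NK receptor NKp46, stood at 5.32, 7.24 and 6.84 on Type-1 replicates 1 to 3, and Klrb1c at 4.73, 6.35 and 5.69. Fcer1g, Cd7, Kit and Il7r were lowest on replicate 1 as well. Klra9, Gata2, Eomes (7.24, 7.10 and 8.05) and Tyrobp (7.09, 7.18 and 6.71) were not. Replicate 1 was the highest Type-1 array for Samd3, Ctla2a, Ctla2b and Klrk1. Other NKG2 genes near the members in profile went another way. On Type-1 replicates 1 to 3 Klrc2 stood at 5.96, 6.37 and 6.86, lowest on replicate 1. Klrc3 stood at 6.41, 6.64 and 5.21, highest on replicate 2. The part of NK or innate lymphoid cells in the members' values was not tested.

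Between IELs and Naive-like cells, where Ctla2b passed, 6 of 10 epithelial markers were higher. Of the 10 NK and innate lymphoid cell markers 6 were higher and 2 lower, against 3.57% and 1.62% of all genes. The epithelial mean was 5.51 to 6.18 on the IEL arrays and 3.81 to 4.16 on the Naive-like arrays, with Cdh1 higher by 3.71 ± 0.37, Krt8 by 1.79 ± 0.23 and Epcam by 1.57 ± 0.21. Of the myeloid and dendritic cell markers 2 of 8 were higher, Itgax by 4.86 ± 0.29 and Itgam by 0.82 ± 0.21. The Itgam call was lost when any array but Type-1 replicate 2 was left out. Of the 4 αβ T-cell markers Cd8a was higher by 3.40 ± 0.44 and Cd8b1 lower at -2.81 ± 0.47, and of the γδ markers Cd27 was lower at -1.61 ± 0.30. No B cell marker passed (none at an unadjusted p under 0.05). No mast cell marker passed there (1 at an unadjusted p under 0.05), and of the endothelial markers Pecam1 alone passed, as lower (-2.81 ± 0.30). The part of these cells in the Ctla2b result was not tested.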

How the data were processed

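The authors deposited log2 intensities of 41345 rows for 9 arrays. The submitters' processing notes name oligo and RMA, a method that subtracts background, equalizes the arrays and combines the probes of a row. The sources used here give no version, filter or build. There are no detection calls, and RMA compresses differences of dim genes. The number of arrays limits the precision.

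Rows were named through the platform annotation. Of these, 23521 had 1 symbol, and each of 22180 genes was taken by its row of highest mean. The fit was made in R 4.3.3 with limma 3.58.1 (lmFit with a mean per subset, then eBayes), two-sided, with Benjamini-Hochberg adjustment over all 22180 genes at 0.05, after a test on simulated data. The members and gene lists were chosen with earlier results of these data known. Genes named are the members, the 6 nearest profiles of each, 3 measured neighbours on each side, Ctsl, up to 4 genes per list with the largest differences among those that passed in a Type-1 comparison (or the 2 highest rows where none did), and per marker class those that passed against Naive-like cells and up to 3 with the highest row values. Markers that passed between IELs and Naive-like cells, Ctsw, Cd40lg, Cxcr3 and Bmp7 were chosen after their values were seen. So were the replicate values of Klrc2 and of NK and innate lymphoid cell markers. Promoters come from RefSeq (GRCm38.p6) and were aligned with Biopython 1.88.

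Alternatives were other normalizations, a low-value filter, a trend with robust spread, array weights, other uses of a gene's rows, the replicate number or date code as a block, subsets of arrays, and each array left out. Deviations of same-numbered arrays correlated at 0.16, 0.10 and 0.30 between IELs and Type-1 cells, all above 0.1. The numbers were therefore taken to pair these subsets, and the blocked value is given where it changes a call. The 0.30 is for the replicate 3 arrays, which share the date code. Differently numbered arrays of these 2 subsets reached 0.04, and those of any 2 subsets 0.21. For the other comparisons a correlation fell to 0.01 or -0.01, and the numbers were not taken as a pairing.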

Additional observations from a re-analysis of the deposited data

How the results depend on the processing

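Samd3, Ctla2a and Ctla2b kept the direction of their 9 differences under all alternatives run. In Type-1 against Naive-like cells the ranges without 1 array were 4.09 to 4.45 for Samd3, 3.87 to 4.22 for Ctla2a and 3.59 to 4.71 for Ctla2b. In IELs against Type-1 cells they were -4.79 to -4.39, -3.19 to -2.63 and -1.74 to -1.13. In IELs against Naive-like cells they were -0.51 to -0.12, 0.85 to 1.41 and 2.06 to 3.19, and Ctla2b passed in every alternative. Ctla2a passed with the low-value filter (1.10, adjusted p = 0.038), cyclic loess (1.11, 0.049), array weights (0.90, 0.046) and the replicate block (1.10, 0.014), and its adjusted p reached 0.23 in others. The difference of Ctla2b between IELs and Type-1 cells had an adjusted p of 0.108, but passed with array weights (0.045), the compared subsets alone (0.033), the replicate block (0.024), and without Naive-like replicate 2 (0.047) or replicate 3 (0.033). Its highest value was 0.33, without IELs replicate 2. The number of genes passing between Type-1 and Naive-like cells was 63, against 34 to 87 without 1 array and 20 on the arrays without the date code. For IELs against Type-1 cells it was 1140, against 724 to 1308 and 565. For IELs against Naive-like cells it was 1152, against 826 to 1227, 534 and, with array weights, 1920. The genes higher in Type-1 cells than in each other subset numbered 20, against 14 to 23 and 9. With the replicate block these counts were 81, 1405, 1378 and 21, and among IELs against Type-1 cells it changed no other call of a member. The causes were not tested. On the arrays without the date code, 4 NKG2 and related receptor genes and 7 type 1 genes passed as higher in Type-1 than in Naive-like cells. Without detection calls, low values such as those of Tpbpb have no stated background.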
